A study of Mus musculus with 6 samples.

Results

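Copper is carried through cells by a small set of transporters, chaperones and metal-binding proteins, and 10 of their genes were followed here in CD8+ T cells: Atp7a, Atp7b, Slc31a1, Slc31a2, Atox1, Ccs, Cox17, Commd1, Mt1 and Mt2. They were taken by gene symbol from the 24559 genes of the deposited table, and all 10 were found. The set was chosen by the log2 fold change of Atp7a, which was among the lowest with L-4F. The values of Atp7a in this contrast are therefore a description, with no test. The other 9 genes were taken for their known function.

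The cells were CD8+ T cells from the spleen of wild-type mice (genotype C57 BL/6 wt), labelled as primary culture cells. There were 3 libraries from cells given the peptide L-4F, a mimic of apolipoprotein A1 (the chief protein of HDL particles), and 3 from cells that received ABCT Buffer alone. Tissue, cell type and genotype were the same in both groups, and the dose, the time of treatment, the age of the mice and the purity of the cells were not stated in the labels read here. The study asks how apolipoprotein A1 acts on immune functions of CD8+ T cells. Whether the libraries within a group stem from different mice or separate cultures is not stated. All p-values therefore reflect only the spread among these samples, which may be technical.

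Copper enters the cell through the high-affinity transporter CTR1, the product of Slc31a1. Chaperones then hand the metal on, each to its own client: ATOX1 to the copper-pumping ATPases ATP7A and ATP7B, CCS to superoxide dismutase 1, and COX17 to the assembly of cytochrome c oxidase in mitochondria. ATP7A loads copper into enzymes of the secretory pathway and, when copper is plentiful, moves to the cell surface and exports it. Metallothioneins bind spare copper and zinc.

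Library depth ranged from 25073292 to 31332003 reads. Values are normalized reads, that is, reads divided by the authors' library factor, and they do not correct for gene length. Of the 10 genes 9 passed the filter of at least 10 normalized reads in at least 3 libraries, and Atp7b did not. Calls needed an adjusted p under 0.05 (limma, Benjamini-Hochberg over the 14922 genes tested). Of all genes tested, 18.4% were called higher and 19.7% lower with L-4F. Higher genes made up 48.2% of all calls under the deposited scaling and 37.3% after centring each library on its median. CD8+ T cell markers summed to 83916.9 to 84110.7 normalized reads in buffer libraries and 95025.6 to 97708.4 in L-4F libraries. Of the 8 markers in this sum 6 were called higher and 1, Cd5, lower (log2 fold change -0.24, limma adjusted p = 6.37e-05). Markers of other cells were much lower in sum, and those of B cells (220.7 to 261.7 against 309.2 to 338.1), neutrophils (92.4 to 119.6 against 171.3 to 196.6) and erythroid cells (218.5 to 253.8 against 321.9 to 354.8) were higher with L-4F. Of these 3 lists 1 of 4 tested B cell markers, 2 of 3 neutrophil markers and 2 of 4 erythroid markers were called higher, none of the listed genes was at 0 in all 6 libraries, and Ebf1, Ly6g, Retnlg and Alas2 stayed under 10 normalized reads. The sums for CD4+ T cells, macrophages and monocytes overlapped between the groups. Those for natural killer cells overlapped as well, but were mostly Eomes (means 6098.7 and 6248.7, not called). Of the 6 natural killer cell markers 2 were called higher, Klrb1c (log2 fold change 0.23) and Klra4 (0.69), and none lower. In the CD4+ T cell and dendritic cell lists 1 tested marker each was called lower and none higher. Fold changes varied with transcript length, as described below. With a smooth trend in the longest transcript removed, the calls of the erythroid markers Hba-a1 (0.37, limma adjusted p = 0.14) and Hbb-bs (0.37, adjusted p = 0.104) ended. So did those of Klrb1c (0.17, adjusted p = 0.105), Klra4 (0.51, adjusted p = 0.166) and Trac (-0.05, adjusted p = 0.128). Cd79b (0.36), S100a8 (0.89), S100a9 (0.87), Cd4 (-0.69) and Zbtb46 (-0.52) stayed called, as did the other called CD8+ T cell markers. The dendritic cell sum was 92.5 to 111.3 in buffer and 70.5 to 86.3 in L-4F libraries. The part of other cells in the results below was not tested. In such bulk RNA, fewer cells of a type and less RNA per cell cannot be told apart.

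Atp7a, the copper exporter, had the lowest L-4F values relative to buffer of the 10 genes. It was at 439.7, 391.5 and 492.9 normalized reads in the 3 buffer libraries and at 206.9, 240.4 and 181.0 in the 3 L-4F libraries. All 3 L-4F libraries lay below all 3 buffer libraries, and the lowest buffer value was well above the highest L-4F value. The means were 441.3 ± 50.7 and 209.4 ± 29.8 normalized reads (SD, n = 3), a log2 fold change of -1.08 (SE 0.11), or 2.11-fold lower with L-4F. This rests on 174 to 499 reads per library. Of the 14922 genes tested, 183 had a log2 fold change as low as that of Atp7a or lower, Atp7a included, and only 20 of these were among the 10887 genes with a mean of at least 100 normalized reads. The authors' deposited table lists the same log2 fold change of -1.08, which comes from the same libraries and is not separate support.

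Atp7a (ENSMUSG00000033792) lies on chromosome X from 106027276 to 106124926 on the plus strand, in GRCm38 coordinates of GENCODE M21, and its longest annotated transcript has 4900 nt. Fold changes in this series varied with transcript length, so the value was also taken after a smooth length trend had been removed from each library. It was then -0.97 with the longest transcript, -0.93 with the first-numbered transcript of each gene in the annotation and -0.93 with summed exon length. Among the 1491 tested genes with a longest transcript of 4847 to 6326 nt, the length class of Atp7a, the median log2 fold change was -0.15, 43.9% were called lower, and 16, Atp7a included, were at or below its value.

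**Figure D1:**
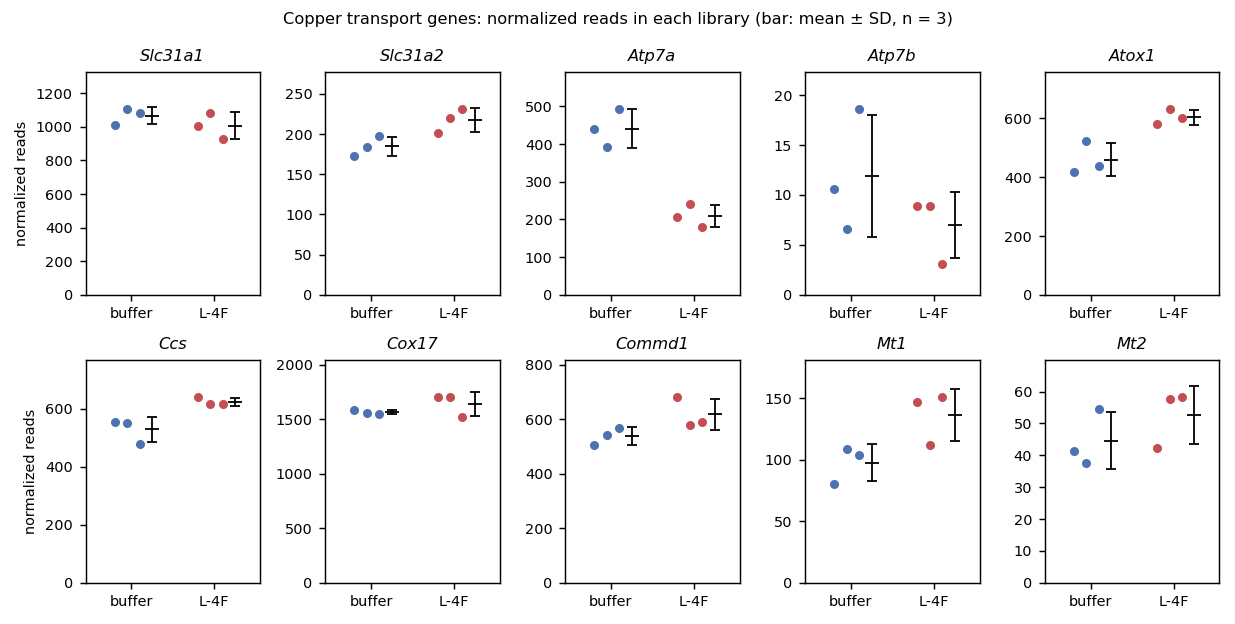
Normalized reads (vertical axis, from 0) of the 10 copper transport genes in each of the 3 ABCT buffer libraries (blue) and 3 L-4F libraries (red), with the mean and SD of each group in black. Atp7a is at 391.5 to 492.9 in buffer and 181.0 to 240.4 with L-4F, while Slc31a1 and Cox17 overlap between the groups and Atox1, Ccs, Commd1, Mt1 and Slc31a2 lie higher with L-4F without overlap.

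To set the lower Atp7a level beside its promoter, the 250 bases upstream of its RefSeq start are shown (GRCm38.p6, chrX:106026974-106027223, plus strand, 5′ to 3′). Capitals mark matches to the core of the metal response element, the sequence bound by the metal-sensing factor MTF1 in metallothionein promoters.
Atp7a: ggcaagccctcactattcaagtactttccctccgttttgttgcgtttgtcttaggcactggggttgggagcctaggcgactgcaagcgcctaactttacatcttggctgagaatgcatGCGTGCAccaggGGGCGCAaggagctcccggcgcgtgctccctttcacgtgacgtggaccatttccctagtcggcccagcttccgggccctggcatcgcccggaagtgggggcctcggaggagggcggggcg
The core was searched as TGCACNC and TGCGCNC on both strands, where matches on opposite strands may overlap. The Atp7a window held 2 matches, both on the minus strand. Of 32851 such windows over all genes in RefSeq's GRCm38.p6 annotation, 21.4% held at least 1 match and 5.17% at least 2. The GC content of the Atp7a window was 62.4%, against a median of 52.4% over all windows, and these shares were not matched for it. A match is a string of letters and not a measured binding site.

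Atp7b, the second copper ATPase, known best from liver, was near the limit of detection. It had 12, 7 and 18 reads in the buffer libraries and 8, 9 and 3 in the L-4F libraries, at or below 18.6 normalized reads, and the groups overlapped. It was not tested. Atp7b (ENSMUSG00000006567) lies on chromosome 8 from 21992785 to 22060305 on the minus strand. When all 24559 genes were fitted, its log2 fold change was -0.70 (SE 0.509, 95% interval -1.79 to 0.40, limma adjusted p = 0.438), so a change was not detectable at this depth.

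The uptake transporter Slc31a1 was about as abundant in both groups. Its values were 1009.0, 1105.6 and 1081.6 normalized reads in buffer and 1006.7, 1084.9 and 924.9 with L-4F. The groups overlapped, and the means were 1065.4 ± 50.3 and 1005.5 ± 80.0 (SD, n = 3). The log2 fold change of -0.09 did not pass (95% interval -0.21 to 0.04, limma adjusted p = 0.297), and the interval bounds any change to these values without showing that there was none. Slc31a1 (ENSMUSG00000066150) lies on chromosome 4 from 62360727 to 62391769 on the plus strand. Cdc26, which overlaps Slc31a1 on the opposite strand without shared exon bases, rose from 1047.9 ± 30.4 to 1342.5 ± 54.9 normalized reads (SD of n = 3; log2 difference 0.36), and the use of strand in counting is not stated.

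Within each library the number of Atp7a reads per Slc31a1 read does not depend on library scaling. It was 0.436, 0.354 and 0.456 in buffer and 0.206, 0.222 and 0.196 with L-4F. The 2 groups did not overlap, and as Atp7a was chosen for its drop this is a description only.

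Slc31a2, which encodes CTR2, a relative of CTR1 with a role in copper storage and release from vesicles, had 172.7, 183.9 and 196.9 normalized reads in buffer and 201.3, 219.6 and 231.0 with L-4F. Slc31a2 (ENSMUSG00000066152) lies on chromosome 4 from 62262562 to 62298411 on the plus strand. All L-4F libraries were above all buffer libraries. The log2 fold change was 0.23 (SE 0.111) and did not pass (limma adjusted p = 0.106), and it was 0.11 with the transcript length trend removed.

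Among the other 9 genes, 8 were tested and 4 rose with L-4F: Atox1, Ccs, Commd1 and Mt1. None fell, beside 38.2% of all genes tested called in either direction, 18.4% higher and 19.7% lower. The groups did not overlap for 5 of the 8, all 5 higher with L-4F, beside 47.6% of all genes tested without overlap in either direction, 23.2% higher and 24.4% lower. With the transcript length trend removed 1 of the 8, Commd1, was called, and higher, beside 26.4% of all genes called in either direction, 13.5% higher and 12.9% lower. The median log2 fold change of the 8 was 0.24, against 0.00 over all genes tested. The median longest transcript of the 8 was 1452 nt, against 2964 nt over all genes, and all tested genes no longer than 1415 nt had a median of 0.19 or 0.20 in each length class.

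Atox1, the chaperone that delivers copper to ATP7A, had 417.7, 523.5 and 438.2 normalized reads in buffer and 579.5, 631.8 and 600.3 with L-4F. Every L-4F library was above every buffer library. The mean rose from 459.8 ± 56.1 to 603.9 ± 26.3 normalized reads (SD of n = 3; log2 difference 0.40, SE 0.0826, limma adjusted p = 0.000531), or 1.32-fold. Its call held when any of the libraries was left out (limma adjusted p up to 0.00685). Its longest transcript has 541 nt, and with the transcript length trend removed the log2 fold change was 0.17 and was not called (limma adjusted p = 0.148, and 0.102 and 0.0937 with the other measures of length). Atox1 (ENSMUSG00000018585) lies on chromosome 11 from 55446641 to 55461239 on the minus strand. Per read of Atp7a there were 0.950, 1.34 and 0.889 reads of Atox1 in buffer and 2.80, 2.63 and 3.32 with L-4F, again without overlap. As Atp7a was chosen for its drop, this ratio too is a description only.

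Ccs, the chaperone of superoxide dismutase 1, had 554.3, 551.8 and 478.4 normalized reads in buffer and 639.6, 615.0 and 616.9 with L-4F. The groups did not overlap, and the third buffer library was the lowest. The mean rose from 528.2 ± 43.1 to 623.8 ± 13.7 (SD of n = 3; log2 difference 0.24, SE 0.073, limma adjusted p = 0.0113). Without buffer library 3 the log2 fold change was 0.17 and the call ended (limma adjusted p = 0.087), and with the transcript length trend removed it was 0.04 (adjusted p = 0.714). Ccs (ENSMUSG00000034108) lies on chromosome 19 from 4825366 to 4839332 on the minus strand. Sod1, whose product receives copper from CCS, rose from 5624.4 ± 57.1 to 7109.5 ± 280.1 normalized reads (SD of n = 3; log2 difference 0.34, SE 0.0294, limma adjusted p = 6.69e-09), and stayed called with a length trend removed, at 0.38 by the longest transcript and 0.13 by the first-numbered transcript (adjusted p = 0.0017). The number of Ccs reads per Sod1 read was 0.0978, 0.0977 and 0.0861 in buffer and 0.0861, 0.0888 and 0.0885 with L-4F, so this ratio overlapped between the groups.

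Cox17, the chaperone that starts copper delivery to cytochrome c oxidase, had 1584.4, 1559.3 and 1549.7 normalized reads in buffer and 1700.8, 1702.8 and 1515.8 with L-4F. The third L-4F library was below all buffer libraries and the other two above them. The log2 fold change was 0.07 (95% interval -0.04 to 0.17, limma adjusted p = 0.315), and it passed without L-4F library 3 (0.12, adjusted p = 0.049). Its annotated transcripts differ widely in length. With the trend in the first-numbered transcript (444 nt) removed its value was -0.15 (adjusted p = 0.0225), and with the longest transcript (3690 nt) it was 0.09 (adjusted p = 0.186), so its sign rests on which transcript is assumed. Cox17 (ENSMUSG00000046516) lies on chromosome 16 from 38346991 to 38352763 on the plus strand. Gm21987 overlaps Cox17 on the same strand and had at most 1.99 normalized reads.

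Commd1, a scaffold protein that binds copper and takes part in the endosomal recycling of ATP7A and ATP7B, had 505.8, 542.4 and 569.2 normalized reads in buffer and 681.9, 580.2 and 592.0 with L-4F. The groups did not overlap, but the highest buffer and lowest L-4F libraries lay close together. The mean rose from 539.1 ± 31.8 to 618.0 ± 55.6 (SD of n = 3; log2 difference 0.19, SE 0.0762), with a limma adjusted p = 0.049. Leaving out buffer library 1 ended its call (log2 fold change 0.15, adjusted p = 0.201), as did leaving out the second buffer library (0.20, adjusted p = 0.0954) and the first L-4F library (0.12, adjusted p = 0.255). The call also ended under median centring (0.15, adjusted p = 0.127), quantile normalization (0.16, adjusted p = 0.119), scaling by total reads (0.18, adjusted p = 0.0754) and with the trend in the first-numbered transcript removed (0.08, adjusted p = 0.514), while with the trend in the longest transcript removed it was 0.27 (adjusted p = 0.0111). The authors' deposited table gives an FDR of 0.0791 for Commd1, above 0.05. Commd1 (ENSMUSG00000051355) lies on chromosome 11 from 22896136 to 22982382 on the minus strand. Zrsr1, which shares exon bases with Commd1 on the opposite strand, was at 1010.9 ± 26.2 and 970.4 ± 25.6 normalized reads (SD of n = 3; log2 difference -0.06, limma adjusted p = 0.42). Another gene, Gm28048, shares exon bases with Commd1 on the same strand. It has no row in the deposited table, so the division of reads between it and Commd1 is not known.

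**Figure D2:**
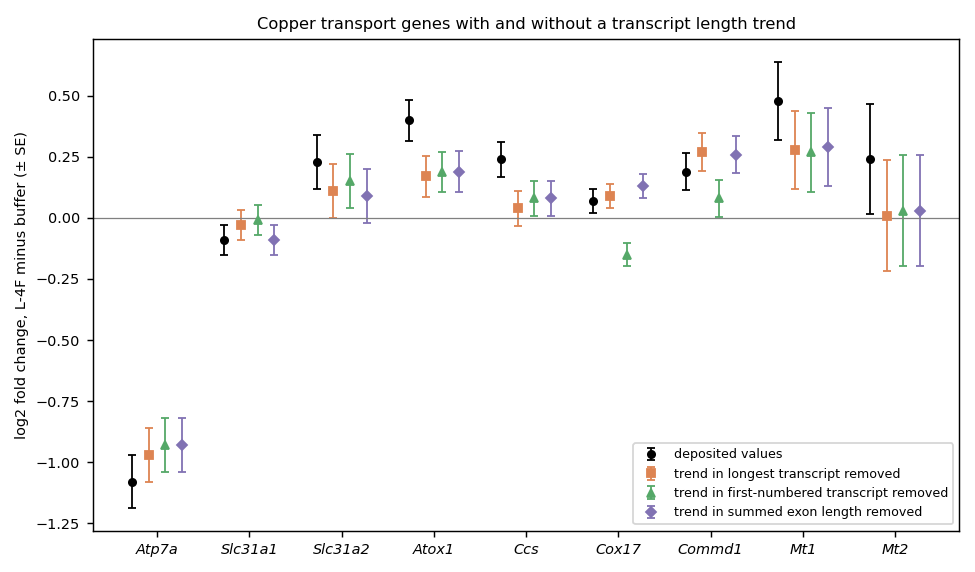
Log2 fold change of L-4F minus buffer (vertical axis, bars are the SE) for the 9 genes that passed the filter, from the deposited values (black) and with a trend in 1 of 3 measures of transcript length removed from each library (colours). Atp7a stays between -1.08 and -0.93, Atox1 moves from 0.40 to 0.17 or 0.19, and Cox17 is below 0 only with the trend in the first-numbered transcript removed.

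The metallothioneins Mt1 and Mt2 are neighbours. Mt1 (ENSMUSG00000031765) lies on chromosome 8 from 94179082 to 94180327 on the plus strand. Mt2 (ENSMUSG00000031762) lies on chromosome 8 from 94172664 to 94173568 on the plus strand. Mt1 had 80.2, 108.5 and 104.1 normalized reads in buffer and 146.8, 112.3 and 150.9 with L-4F. The lowest L-4F library was just above the highest buffer library. The mean rose from 97.6 ± 15.2 to 136.6 ± 21.2 (SD of n = 3; log2 difference 0.48, SE 0.16, limma adjusted p = 0.0212), or 1.40-fold. Leaving out the first buffer library ended the call (log2 fold change 0.35, adjusted p = 0.131), as did leaving out the first (0.42, adjusted p = 0.0803) or the third L-4F library (0.40, adjusted p = 0.0917), and with the transcript length trend removed the value was 0.28 (adjusted p = 0.214).

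Mt2 had 41.4, 37.7 and 54.6 normalized reads in buffer and 42.3, 57.6 and 58.3 with L-4F, and the groups overlapped. Its log2 fold change of 0.24 did not pass (95% interval -0.23 to 0.71, limma adjusted p = 0.438). It rests on 38 to 58 reads per library, and Mt1 on 91 to 145. That Mt1 was called and Mt2 was not does not show that they differ, and their intervals overlap. Their messages are similar in sequence and the counting is not described, so the division of reads between them is uncertain, and an antisense gene, Gm45774, overlaps Mt2.

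The promoters of both metallothioneins are known for their metal response elements, so their 250 bases upstream of the RefSeq start are shown beside that of Atp7a (GRCm38.p6, both on the plus strand, 5′ to 3′). Mt1 is read from chr8:94178839-94179088 and Mt2 from chr8:94172368-94172617, with matches to TGCACNC or TGCGCNC on either strand in capitals.
Mt1: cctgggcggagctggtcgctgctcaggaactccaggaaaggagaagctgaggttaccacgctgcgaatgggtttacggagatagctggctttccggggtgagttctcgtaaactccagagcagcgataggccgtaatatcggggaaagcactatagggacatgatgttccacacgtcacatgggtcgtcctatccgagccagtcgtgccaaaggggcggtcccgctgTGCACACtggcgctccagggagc
Mt2: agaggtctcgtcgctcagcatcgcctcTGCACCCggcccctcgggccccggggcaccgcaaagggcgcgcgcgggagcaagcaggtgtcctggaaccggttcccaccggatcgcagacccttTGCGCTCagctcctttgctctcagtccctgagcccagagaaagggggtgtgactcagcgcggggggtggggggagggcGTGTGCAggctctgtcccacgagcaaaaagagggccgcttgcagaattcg
The Mt2 window held 3 matches, a number reached by 1.26% of all windows, and the Mt1 window held 1. Each window covers only the 250 bases upstream of 1 RefSeq start. Matches downstream of that start were not counted, so the 1 match is not a count for the whole Mt1 promoter. Of the 10 genes 8 had an entry in the RefSeq table, with 9 windows in all. Of these 7 held at least 1 match, beside 21.4% of all windows, and those of Atox1 and Slc31a1 held none. The 9 windows had a GC content of 52.8% to 69.6%, against a median of 52.4% over all windows, and the shares were not matched for it. Ccs and Cox17 had no entry.

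Levels were compared between genes per kb of the first-numbered transcript. In buffer libraries the order was Cox17 (3523.6 ± 40.4 normalized reads per kb, SD, n = 3), Atox1 (849.9 ± 103.8), Ccs (495.0 ± 40.4), Commd1 (369.5 ± 21.8), Slc31a1 (286.5 ± 13.5), Mt1 (177.8 ± 27.8), Slc31a2 (101.4 ± 6.66), Atp7a (90.7 ± 10.4), Mt2 (87.3 ± 17.4) and Atp7b (1.83 ± 0.936). The mean ± SD ranges of Slc31a2, Atp7a and Mt2 overlapped, so the order of these 3 does not hold beyond their spread. With L-4F, Slc31a2 stood at 119.4 ± 8.21, Mt2 at 103.2 ± 17.7 and Atp7a at 43.0 ± 6.12 on the same scale, so that Atp7a was below both and above only Atp7b. The places of Cox17, Commd1 and Mt1 depend on the transcript assumed, since their longest transcripts of 3690, 4508 and 1085 nt give 424.0, 119.6 and 90.0 normalized reads per kb in buffer. By that measure Mt1 was below Slc31a2 (101.4) and level with Atp7a (90.1).

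**Figure D3:**
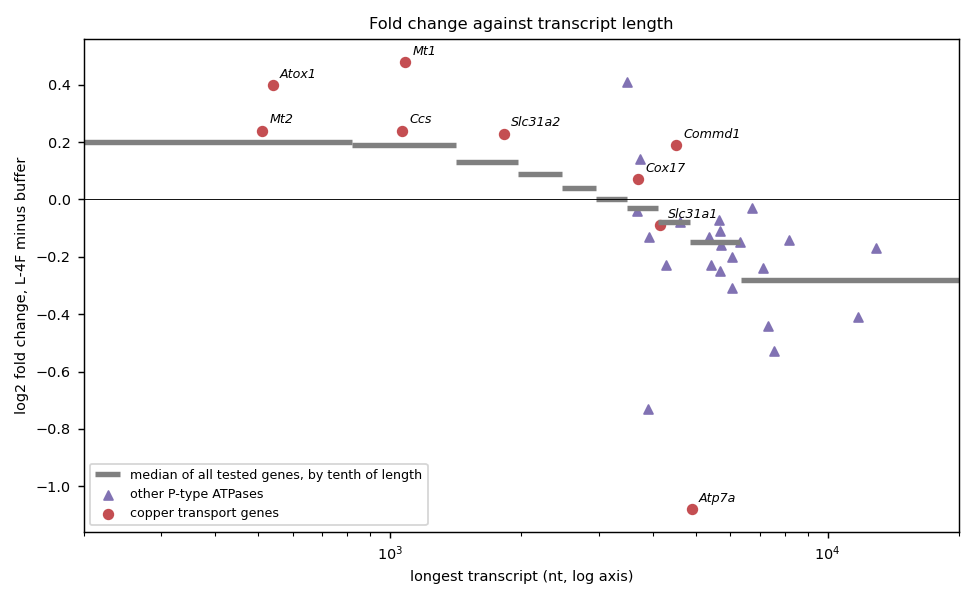
Log2 fold change of L-4F minus buffer against the length of the longest transcript (log axis) for the 9 tested copper transport genes (red circles, named) and 23 other P-type ATPases (purple triangles), with the median of all tested genes in each of 10 length classes as grey bars. The grey bars go from 0.20 in the shortest class to -0.28 in the longest, and Atp7a, at -1.08, lies below all of the other genes drawn.

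Atp7a belongs to the P-type ATPases, pumps that form a phosphorylated intermediate and move ions or flip lipids. Of 35 other P-type ATPases listed, 28 were in the table and 23 were tested. Of these 16 fell with L-4F and none rose, beside 19.7% of all genes called lower, and the median of the 23 log2 fold changes was -0.16, against 0.00 over all genes. Their longest transcripts had a median of 5693 nt, against 2964 nt over all genes. Among the 6 with the smallest adjusted p were Atp13a3, a polyamine transporter (-0.44), Atp11a, a phospholipid flippase (-0.53), Atp2a2, the calcium pump SERCA2 (-0.25), Atp2b1, a plasma membrane calcium pump (-0.24), and Atp2b4, another plasma membrane calcium pump (-0.41). Atp13a3 fell from 7173.1 ± 129.1 to 5276.0 ± 47.5 normalized reads (SD, n = 3) and Atp11a from 2389.8 ± 58.4 to 1657.2 ± 56.5. With the transcript length trend removed 5 of the 23 were lower and none higher, beside 12.9% of all genes lower and 13.5% higher. With the trend in the first-numbered transcript removed 4 were lower and 2 higher, beside 1970 lower and 1981 higher of all 14922 genes tested. In the first of these settings Atp13a3 (-0.21), Atp11a (-0.29) and Atp2a2 (-0.10) were still called, and Atp2b1 (-0.02, limma adjusted p = 0.668) and Atp2b4 (-0.04, adjusted p = 0.671) were not.

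COMMD1 acts with its sister proteins in the commander complex, which returns membrane proteins such as ATP7A from endosomes to the cell surface. Of 14 other genes of this complex 9 rose and 1 fell, beside 18.4% and 19.7% of all genes, with a median log2 fold change of 0.20. Commd3 rose from 1628.1 ± 49.4 to 2153.3 ± 51.2 normalized reads (SD of n = 3; log2 difference 0.40, SE 0.0416, limma adjusted p = 8.84e-08), Commd4 rose by 0.32 and Ccdc22, which links COMMD proteins to the rest of the complex, by 0.38. Ccdc93, its partner, fell from 1871.8 ± 45.8 to 1584.3 ± 25.0 (log2 fold change -0.24), and its value was -0.01 with the transcript length trend removed (adjusted p = 0.884). In that setting 7 of the 14 were higher and none lower, with a median of 0.20, beside 13.5% of all genes higher, and Commd3 (0.19), Commd4 (0.21) and Ccdc22 (0.30) were among them. With the trend in the first-numbered transcript removed, 5 were higher and none lower, beside 1981 higher and 1970 lower of all 14922 genes tested.

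COX17 starts copper delivery to cytochrome c oxidase in mitochondria. The 12 other genes listed for this delivery were chosen by function and are not a list of proteins that receive copper from COX17. Of these 12 genes 4 rose and none fell, beside 18.4% and 19.7% of all genes. The median log2 fold change of the 12 was 0.22 and the median length of their longest transcripts 1810 nt. Those that rose were Cmc1 (0.48), Coa6 (0.49), Cox19 (0.30) and Cmc2 (0.26), small assembly proteins of the space between the mitochondrial membranes. Cmc1 rose from 220.9 ± 5.61 to 308.8 ± 17.8 normalized reads (SD, n = 3; limma adjusted p = 0.000394). Cmc2 was not called once the first buffer library (0.23, adjusted p = 0.0806) or the second L-4F library (0.20, adjusted p = 0.102) was left out. Sco1 and Sco2, which carry copper to the oxidase itself, did not pass (-0.05, 95% interval -0.19 to 0.09, and 0.27, 95% interval -0.10 to 0.64). Cox11 did not pass either (-0.05, 95% interval -0.28 to 0.17), nor did Slc25a3, the phosphate carrier that also imports copper into the matrix (0.02, 95% interval -0.03 to 0.06). With the transcript length trend removed, 3 of the 12 were higher, Cmc1 (0.29), Cox19 (0.24) and Slc25a3 (0.06, adjusted p = 0.041), beside 13.5% of all genes higher. With the trend in the first-numbered transcript removed, 2 were higher and 1 lower, beside 1981 higher and 1970 lower of all 14922 genes tested. The call of Slc25a3 turned in that setting (-0.09, limma adjusted p = 0.00651).

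**Figure D4:**
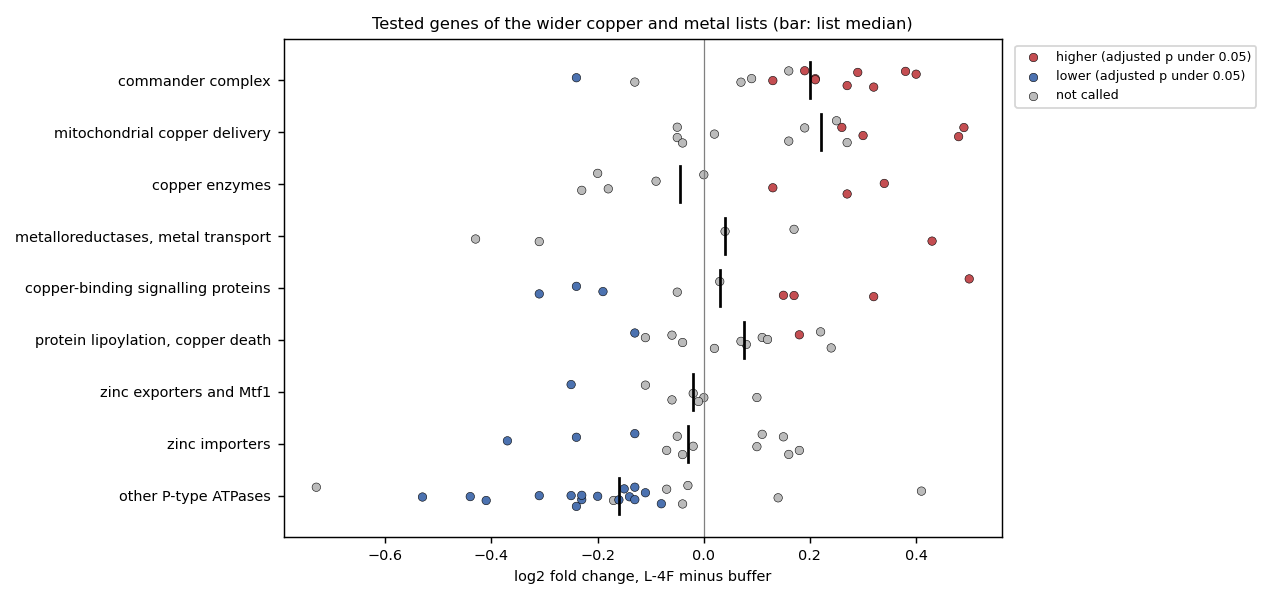
Log2 fold change of L-4F minus buffer (horizontal axis) for each tested gene of the 9 wider copper and metal lists (rows), coloured by whether it was called higher (red), lower (blue) or not called (grey), with the median of each list as a bar. The medians are 0.20 for the commander complex, 0.22 for mitochondrial copper delivery and -0.16 for the other P-type ATPases, all from the deposited scaling.

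Of 8 tested genes of copper enzymes 3 rose and none fell, beside 18.4% and 19.7% of all genes. They were Sod1, given above, and the copper-binding subunits of cytochrome c oxidase encoded by the mitochondrial genome, mt-Co1 (0.13) and mt-Co2 (0.27). With the trend in the longest transcript removed neither mitochondrial gene was called (-0.02, adjusted p = 0.147, and 0.04, adjusted p = 0.075), and mt-Co1 was at 0.00 under quantile normalization. With the trend in the first-numbered transcript removed mt-Co2 was called, at 0.06 (adjusted p = 0.00824), and with the exon length trend removed mt-Co1 was called lower, at -0.05 (adjusted p = 0.00166). Of the tested copper enzymes that pass through the secretory pathway, where ATP7A supplies copper, Aoc2, an amine oxidase, was at 578.3 ± 6.57 and 542.2 ± 7.59 normalized reads (SD of n = 3; log2 difference -0.09, limma adjusted p = 0.3). Pam, which amidates peptides, was at 212.4 ± 6.92 and 184.8 ± 10.7 (log2 difference -0.20, limma adjusted p = 0.16), and Cp, Loxl3 and Aoc3 stayed at or below 43.3 in every library. Among copper-binding signalling proteins 4 of 9 rose and 3 fell, beside 18.4% and 19.7% of all genes. Glrx, glutaredoxin 1, rose most, from 1140.7 ± 29.3 to 1615.9 ± 44.0 normalized reads (SD of n = 3; log2 difference 0.50, SE 0.0471, limma adjusted p = 2.11e-08), and was at 0.56 with the length trend removed. Map2k2, a MAP kinase kinase (0.17), and Memo1 (0.15) also rose, and Xiap, an inhibitor of caspases that COMMD1 binds, fell (-0.24). Removing the length trend ended the calls of Xiap (-0.03, adjusted p = 0.56) and Map2k2 (0.10, adjusted p = 0.0573). The call of Memo1 ended without the third buffer library (0.13, adjusted p = 0.0648), under median centring (0.11, adjusted p = 0.0567) and with the trend in the first-numbered transcript removed (0.03, adjusted p = 0.705).

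Of 5 tested metalloreductases and metal transporters Cutc, a copper-binding protein, rose (0.43) and none fell, beside 18.4% and 19.7% of all genes. The call of Cutc ended with any of the 3 length trends removed (0.26 to 0.30, adjusted p from 0.0699 to 0.117). Slc11a1 (-0.43, adjusted p = 0.0661), Slc40a1, the iron exporter ferroportin (-0.31, adjusted p = 0.287), and Steap3, a metalloreductase (0.17, adjusted p = 0.484), did not pass. Slc11a1, a metal transporter of phagocyte vesicles, was called lower once L-4F library 1 was left out (-0.54, adjusted p = 0.0365) and after median centring (-0.47, adjusted p = 0.0452). Of 12 genes of protein lipoylation and copper-induced death 1 rose, Pdhb (0.18), and 1 fell, beside 18.4% and 19.7% of all genes. Fdx1, the ferredoxin named in that form of death, was at 0.24 (95% interval -0.02 to 0.50, adjusted p = 0.135). Dld, the lipoamide dehydrogenase, did not pass (0.08, adjusted p = 0.117). With the length trend removed, none of the 12 was called in either direction, beside 26.4% of all genes.

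Mtf1, the metal-sensing factor that switches on metallothionein genes, fell from 1231.6 ± 49.2 to 1031.7 ± 17.0 normalized reads (SD of n = 3; log2 difference -0.25, SE 0.0514, limma adjusted p = 0.000407). Its longest transcript has 7631 nt, and removing the length trend brought it to -0.01 (adjusted p = 0.91). None of the 6 tested zinc exporters passed, beside 38.2% of all genes called in either direction. Among them were Slc30a1, a target of MTF1 (0.10, 95% interval -0.10 to 0.29), Slc30a7 (-0.11, limma adjusted p = 0.0583) and Slc30a9 (-0.06). Slc30a7 was called lower under some settings, such as median centring (-0.15, adjusted p = 0.00907), the replicate block (adjusted p = 0.0379) and without the first buffer (-0.14, adjusted p = 0.023) or the third L-4F library (-0.13, adjusted p = 0.0366). It was called higher with the trend in the longest transcript removed (0.19, adjusted p = 0.00182). In that setting 2 exporters were higher and none lower, beside 13.5% and 12.9% of all genes. With the trend in the first-numbered transcript removed 4 were higher and none lower, beside 1981 higher and 1970 lower of all 14922 genes tested. Of 12 tested zinc importers 3 fell, a share near the 19.7% of all genes called lower, and none rose, beside 18.4% of all genes called higher. Slc39a10 fell most, from 1658.1 ± 118.7 to 1280.8 ± 11.6 normalized reads (log2 fold change -0.37), or -0.23 once the length trend was removed (adjusted p = 0.0017). Slc39a14 (-0.24) and Slc39a9 (-0.13) also fell but were not called in that setting (-0.12, adjusted p = 0.0574, and 0.01, adjusted p = 0.913). With the trend in the first-numbered transcript removed Slc39a14 was called, at -0.30 (adjusted p = 6.19e-05). The call of Slc39a9 ended when any library but the second L-4F library was left out (adjusted p from 0.061 to 0.104). Slc39a8 did not pass (0.18, adjusted p = 0.127).

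Genes with a pattern like that of Atp7a were sought over the 6 libraries, by the Euclidean distance between log2 values centred on each gene's own mean, among 9880 named genes with a mean of at least 100 normalized reads. The 5 nearest were Prrg4 (distance 0.31), Klhl11 (0.341), Zfp109 (0.391), BC005561 (0.406) and Hipk2 (0.443). Prrg4, which encodes a membrane protein, was at 573.7, 540.5 and 537.2 normalized reads in buffer and 284.8, 320.9 and 258.0 with L-4F. In Prrg4, Klhl11 and Zfp109, as in Atp7a, the second L-4F library was the highest and the third the lowest of the group. Their log2 fold changes ran from -0.95 to -0.80, and those of Prrg4, Klhl11 and Zfp109 were -0.97, -1.03 and -0.83 with the length trend removed, while Hipk2 moved from -0.90 to -0.65. In none of the 5 did the groups overlap, beside 24.4% of all genes tested without overlap and lower. The 5 were chosen for their nearness to Atp7a, itself chosen for its drop. Their drop, lack of overlap and order of libraries therefore follow largely from that choice and are a description only.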

How the data were processed

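RNA was sequenced from 6 libraries of mouse CD8+ T cells, 3 given L-4F and 3 given ABCT buffer, grouped by title. Per the labels' protocols the libraries were strand-specific and made with an Illumina TruSeq kit from 1 μg of total RNA. FastQC (0.11.2, 0.11.5) and StringTie (1.3.1c) appear in the submitters' processing notes. No source used here names an aligner, a genome build or an annotation for the counts. Expression was deposited by the authors as log2 values, found from the values themselves to be log2 of reads divided by a library factor, plus 1 (100% whole reads within 0.01 read in each library). Their table also holds the authors' deposited log2 fold changes, p-values and FDR.

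Genes with at least 10 normalized reads in at least 3 libraries (14922) entered a limma fit (version 3.58.1, under R 4.3.3 with statmod 1.5.0) to the deposited log2 values, with a trended robust spread, no term but group, and p-values adjusted by Benjamini-Hochberg. Fold changes are on the log2(normalized reads + 1) scale, which understates changes of scarce genes. Lengths and coordinates come from GENCODE M21 (GRCm38), matched by gene identifier for 24513 genes, and may differ from the authors' annotation. Length trends were removed with a robust loess (span 0.3). The limma fit was run on simulated reads with a single fixed spread and no length trend. The removal of length trends was not covered by that test. The members and gene lists were chosen with earlier results of these data known. Named were all members, up to 4 genes per list by smallest adjusted p (6 for P-type ATPases) and the 5 genes nearest Atp7a. Sco1, Sco2, Cox11, Slc25a3, Aoc2, Cp, Loxl3 and Aoc3, as well as the genes overlapping members and single cell type markers, were named after their values were seen. A few genes that the rule would name are not reported here. List counts come from the fit over all genes, with no set test. Alternatives were other scalings, filters, spread models, limma-voom, a pseudocount of 0.1, the replicate number as a block, trends in length or GC content removed, and each library left out. The trend in the first-numbered transcript was added after the data were seen. Intervals cover 95%. Depth limits Atp7b, Mt1 and Mt2 most.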

Additional observations from a re-analysis of the deposited data

How the results depend on the processing

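Atp7a kept its direction under all 19 alternatives, between -1.18 and -0.98 with 1 library left out. The count of called genes over the series was 5694, and 4816 to 5362 with 1 library left out. Of the copper genes other than Atp7a, 4 were called, and 2 to 4 with 1 library left out, with 2 without buffer library 1 and 2 without L-4F library 1. The count was 2 without the filter on low values, 1 by limma without the trended robust spread (Atox1), 1 with the longest transcript trend removed (Commd1), 1 with the summed exon length trend removed (Commd1), and 1 with the first-numbered transcript trend removed (Cox17, lower). Of 102 tested genes in the wider lists 47 were called, 22 higher and 25 lower, and 38 to 44 with 1 library left out. That count was 29 without the trended robust spread and 21 with the longest transcript trend removed (15 higher, 6 lower). It was 24 with the first-numbered transcript trend removed (16 higher, 8 lower) and 34 with the exon length trend removed (22 higher, 12 lower). Over all 14922 genes tested, the calls in these settings were, in that order, 4290, 3935, 3951 and 4402. Without the filter on low values, 5116 of 24559 genes were called. The cause of these shifts was not tested.

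Some values changed sign with a call in at least 1 of the 2 settings compared. With the longest transcript trend removed these were mt-Co1 (-0.02), Slc30a7 (0.19) and Slc39a9 (0.01). With the first-numbered transcript trend removed they were Cox17 (-0.15), Ccdc93 (0.02), Mtf1 (0.02), Slc30a7 (0.21), Slc30a9 (0.12), Slc39a9 (0.03) and Atp2b1 (0.01). With the exon length trend removed they were mt-Co1 (-0.05), Slc30a9 (0.16), Slc39a9 (0.05) and Atp2b1 (0.03), and under quantile normalization mt-Co1 was at 0.00. Among values called in neither setting, Slc30a9 turned with the longest transcript trend removed (0.09), and Pam (0.02) and Slc30a7 (0.10) with the exon length trend removed. Of 920 values recomputed for 49 named genes other than Atp7a, 816 kept their side of the threshold and, where called, their direction, or moved by less than 1 SD where no test was made.

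Deviations from the group means correlated across genes at 0.0511, 0.0111 and 0.109 for libraries of the same replicate number. For libraries of different numbers the values ran from -0.0812 to 0.0305. The deviations within a group cancel out, so these small values do not settle whether the numbers pair the libraries. With the replicate number as a block 5521 genes were called, 3 of the copper genes other than Atp7a (Commd1 was not, adjusted p = 0.074) and 45 of the wider lists, and Atp7a was at -1.08. Atp7b, with at most 18 reads per library, and Mt2, with at most 58, are limited by depth.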

Other observations

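Commd5, a sister gene of Commd1, varied within both groups far more than the other COMMD genes. It was at 260.0, 236.8 and 94.9 normalized reads in the buffer libraries and at 81.2, 309.0 and 178.9 in the L-4F libraries, with means of 197.2 ± 89.4 and 189.7 ± 114.3 (SD, n = 3). The SE of its log2 fold change was 0.71, against 0.0416 to 0.0868 for Commd2, Commd3, Commd4, Commd6, Commd7, Commd8, Commd9 and Commd10. Commd5 was picked out after its values were seen. The zinc importer gene Slc39a7 also had a wide spread in buffer, at 2971.4, 2748.8 and 2223.0 normalized reads.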
